A study of Homo sapiens with 6 samples.

Results

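T24 is an established human cell line grown from a urothelial carcinoma of the bladder, and the transcriptome described here is that of T24 cells transfected with a control siRNA (NC, labelled siControl). The members were the 2 NC libraries, labelled biological replicates 1 and 2, of 6 libraries in the series. The other 4 libraries came from T24 cells transfected with siRNAs against the circular RNA circ235, and they enter no value here. The NC cells therefore carried a transfected siRNA of their own, and no untransfected library was used. The labels give neither passage number nor culture conditions, and no other cell line is among the samples, so the levels are those of 1 line.

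Polyadenylated RNA was enriched with oligo dT beads, and the deposited table holds the number of reads per gene for 58288 gene identifiers. NC replicate 1 held 17152017 counts and NC replicate 2 held 15855386. Levels are given as transcripts per 1000000 (TPM), where the count of a gene is divided by the length of its exons and each library is scaled to that sum, or as counts per 1000000 counts (CPM), which ignore length. A gene was taken as expressed when it reached 1 TPM in both libraries, as not detected when its count was 0 in both, and as low otherwise. TPM depend on the gene length taken, here the union of all exons of a gene. Of 387 genes at a mean of 1 TPM or more, among those that the rule for named genes takes, 47.3% changed by over 2 times when the median transcript length was used instead, by factors from 0.304 to 9.98, and 1.29% did with the longest transcript. Where a member is called the highest of its list, this is by mean TPM with the exon union, and in 19 of 56 lists another member led with the median transcript length. Wherever a pair of values is given, the value of NC replicate 1 stands before that of NC replicate 2. A gene of median exon length at 1 TPM corresponded to 26.1 reads in NC replicate 1 and 22.7 reads in NC replicate 2. For a count of 0, 3 counts are the upper limit, or 0.175 and 0.189 CPM, and this limit covers counting error only. Genes are not replicates and there is no other group, so no test between groups or genes was made, and every value is a description of these libraries.

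The urothelium is a layered epithelium. Its basal cells express TP63 and KRT5, and its umbrella cells make uroplakins, the plaque proteins that seal the luminal surface, under factors such as PPARG, GATA3 and FOXA1. Bladder cancers are commonly sorted along this axis into luminal, basal and less differentiated states, and mutations of the RAS, PI3K, TERT promoter and chromatin regulator genes recur among them. T24 is widely used as a model of the less differentiated, invasive end.

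Of 19743 protein-coding genes outside the Y chromosome, 10783 were expressed, which is 54.6%, and this share is the background for the lists of genes below. Another 3484 were low and 5476 were not detected. At least 10 TPM in both libraries was reached by 6174 genes, at least 100 TPM by 1203, and at least 1000 TPM by 108. The median of the expressed genes was 15.9 TPM, and their 5th and 95th percentiles were 1.92 and 232 TPM. The 20 protein-coding genes of highest TPM made up 23.6% of all TPM in NC replicate 1 and 23.7% in NC replicate 2.

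Mitochondrially encoded mRNAs, which code for subunits of the respiratory chain, filled 9 of those 20 places. MT-CO2, a subunit of cytochrome c oxidase, headed the order by TPM at 32986 and 35874 TPM, followed by MT-CO3 at 21300 and 24472 TPM. Without the division by length the order was another one, as EEF1A1 had 17502 and 20291 CPM and MT-CO2 8099.8 and 8272 CPM. The 13 mitochondrial protein-coding genes together took 12.6% and 14.9% of TPM but 4.02% and 4.66% of the counts. With the median transcript length in place of the exon union their mean share was 4.20%, so it depends on the gene lengths taken. The nuclear genes among the 20 were FTL (the light chain of the iron store ferritin), TMSB10 (an actin-binding thymosin), MT2A (a metallothionein that binds zinc and copper), EEF1A1 (a translation elongation factor), S100A6 (a calcium-binding protein), ACTG1 (cytoplasmic gamma-actin) and the ribosomal protein genes RPS15, RPL13A, RPS12, RPS2 and RPS21. FTL stood at 20746 and 18687 TPM, MT2A at 12089 and 10452 TPM and TMSB10 at 19130.5 and 10978 TPM. TMSB10 had the largest absolute gap between the libraries among the nuclear genes of this set. Of 87 genes of the cytosolic ribosomal proteins and their close relatives, 85 were expressed, and they supplied 17.5% and 14.4% of TPM.

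The NC cells carried keratins of simple epithelia, while the uroplakins and the basal keratins KRT5 and KRT14 were at or near 0. KRT18, which pairs with KRT8 into the filaments of simple epithelia, lies at chr12:52948871-52952901 (GRCh38) and had 32717 and 23139 counts. Its level was 1651 and 1345 TPM, a mean of 1498 ± 216 TPM (SD, n = 2). KRT8 reached 778 and 686 TPM and KRT7, a keratin of glandular and urothelial cells, 759 and 703 TPM. KRT19, which most bladder epithelia also express, had 0 and 1 counts, and KRT23 was not detected. So 3 of 5 simple keratins were expressed, at ranks 82, 165 and 166 of all protein-coding genes by mean TPM.

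Of the 12 keratins of stratified epithelia, 7 were not detected, among them KRT5, KRT14, KRT6A and KRT6B, the keratins of basal and squamous cells, and KRT13 and KRT4, those of suprabasal layers. KRT80, a keratin of many epithelia, had the highest mean of the rest at 81.3 and 112 TPM, but KRT10, at 82.9 and 60.9 TPM, was above it in NC replicate 1, and KRT15 led with the median transcript length. KRT15 stood at 18.1 and 16.3 TPM, while KRT16 and KRT17 lay between 1.49 and 2.82 TPM. CD44, a surface glycoprotein that also marks basal urothelial cells, stood at 181 and 238 TPM.

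Uroplakins were at the edge of detection. UPK1A had 15 and 9 counts, or 1.78 and 1.23 TPM, and was the only member of the list of umbrella cell genes to pass 1 TPM in both libraries. UPK2 had 9 and 3 counts and UPK1B 9 and 1. UPK3A and KRT20 had no read in either library, so that KRT20 lay below 0.264 and 0.304 TPM. The whole list summed to 3.75 and 1.89 TPM.

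The factors that direct urothelial differentiation divided in 2. Of 18, 10 were expressed (55.6%, against 54.6% of all protein-coding genes). KLF4, a factor of epithelial barrier formation, was highest at 32.7 and 50.1 TPM, and TFAP2A led with the median transcript length. PPARG, the nuclear receptor that drives the luminal programme, stood at 12.6 and 15.3 TPM and its partner RXRA at 17.9 and 21.7 TPM. By contrast FOXA1 was just above the threshold at 1.31 and 1.22 TPM, and GATA3 had 1 and 14 counts. TP63, GRHL2, TBX3 and EHF had no counts in either library.

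**Figure D1:**
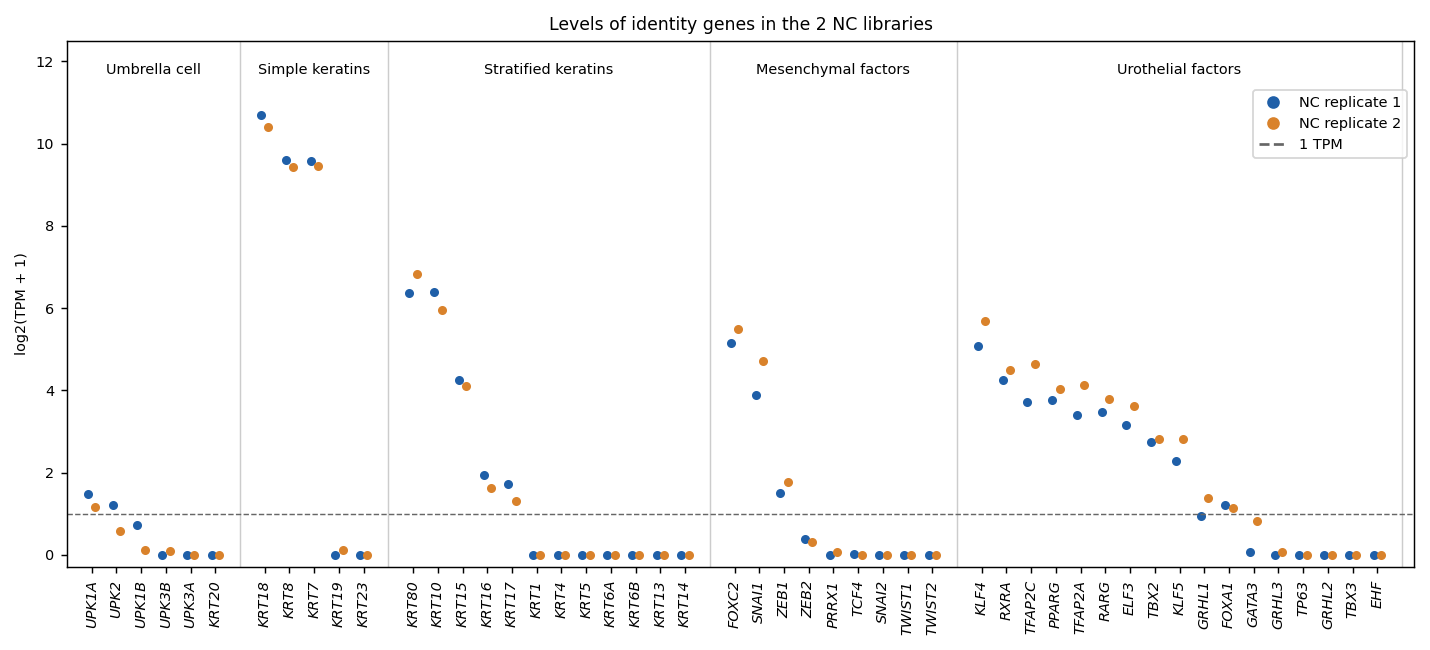
Each point is the level of 1 gene in 1 NC library, as log2(TPM + 1), for reported genes of 5 lists of identity genes, ordered by mean TPM within a list, and the dashed line marks 1 TPM. KRT18, KRT8 and KRT7 stand far above the other identity genes, while the uroplakins, KRT5, KRT14, TP63, SNAI2 and the TWIST genes lie at or near 0.

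The classical cadherins of epithelia had almost no reads. CDH1, which encodes E-cadherin and lies at chr16:68737225-68835548, had 4 and 3 counts, or 0.105 and 0.0909 TPM. CDH3 (P-cadherin) had 0 and 1 counts. CDH2 (N-cadherin) was the highest of the 4 cadherins examined, at 2.17 and 2.42 TPM. CDH11 was not detected. None of the 4 therefore approached the median of the expressed genes.

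Other parts of the junctional apparatus were unequal in level. Of 20 genes of adherens and tight junctions, 15 were expressed (75%), and the median of the list was 3.19 TPM, against 2.43 TPM over all protein-coding genes. CLDN1, a sealing claudin, reached 351 and 543 TPM, whereas CLDN4 stood at 21.6 and 18.9 TPM and CLDN3 and CLDN7 had at most 2 counts per library. The cadherin-binding catenins were present, with CTNNA1 at 66.2 and 100.2 TPM and CTNNB1 at 28.99 and 49.5 TPM. Among desmosome genes 10 of 12 were expressed. JUP (plakoglobin), at 183 and 181 TPM, was more than 2 times the next member, PKP3, at 64.6 and 67.3 TPM. The desmosomal cadherins DSG2 and DSC3 were expressed, and DSG3 and PKP1, which belong to stratified epithelia, were not detected.

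Of 13 structural genes of mesenchymal cells, 6 were expressed (46.2%, against 54.6% of all protein-coding genes). VIM, the intermediate filament of mesenchymal cells, lies at chr10:17228259-17237593 and stood at 406 and 395 TPM, with hardly any gap between the libraries. Far below it, the calcium-binding protein S100A4 stood at 15.1 and 14.8 TPM, the actin-binding transgelin TAGLN at 12.4 and 12.3 TPM and the fibronectin gene FN1 at 5.55 and 8.82 TPM. Stromal products such as POSTN and LUM were at 0, and SPARC had 1 and 0 counts. Of 9 transcription factors of the epithelial-mesenchymal transition, FOXC2 at 34.6 and 44.0 TPM, SNAI1 at 13.9 and 25.2 TPM and ZEB1 at 1.86 and 2.40 TPM were expressed. SNAI2, TWIST1 and TWIST2 had no counts. The epithelial splicing regulator ESRP1 stood at 2.43 and 3.88 TPM, while its paralogue ESRP2 had 1 and 2 counts. The libraries thus held VIM beside KRT18 and KRT8, with little CDH1 and little CDH2.

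Markers of other cell types were examined as a check on the label. The 46 markers were of 7 cell types (leukocytes, endothelium, fibroblasts, smooth muscle, neuroendocrine cells, melanocytes and hepatocytes). Of these markers, 4 passed 1 TPM in both libraries and 26 had no counts. The summed level of all 46 was 32.0 and 34.2 TPM. The most abundant was SYP, a synaptic vesicle protein, at 19.9 and 17.0 TPM, but CHGA, INSM1 and NEUROD1 were at 0. The other 3 were MITF, CD14 and SERPINA1. MITF stood at 4.05 and 6.83 TPM, with MLANA, TYR and SOX10 at 0. PMEL, another melanocyte marker, had a mean of 1.32 TPM but did not reach 1 TPM in both libraries. With the median transcript length 2 melanocyte markers were expressed. CD14 stood at 3.70 and 4.66 TPM with PTPRC, CD3E and TYROBP at 0, and SERPINA1 at 1.09 and 1.30 TPM with ALB and TTR at 0. No member of the fibroblast, endothelial and smooth muscle lists passed 1 TPM, which holds for the markers chosen. Genes of other lists that such cells also express did, with means of 714 TPM for MYL9, 83.5 TPM for ENG and 12.4 TPM for TAGLN. In bulk RNA a few cells with much of a transcript and many cells with little of it cannot be told apart.

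Few integrins, the receptors for matrix, were abundant. They are pairs of an alpha and a beta subunit, and 12 of 26 subunits were expressed (46.2%). ITGA3, the alpha subunit of a laminin receptor, was highest at 378 and 442 TPM. Its partner ITGB1 stood at 108 and 216 TPM and differed by a factor of 2 between the libraries. ITGB5, a vitronectin receptor subunit, reached 95.1 and 108 TPM, and ITGA5, ITGA6 and ITGAV lay between 21.0 and 31.6 TPM. The leukocyte subunits ITGAL, ITGAX, ITGAD, ITGA4 and ITGB7 were not detected. Of 30 matrix genes, 18 were expressed (60%). The highest by mean TPM were AGRN, a heparan sulfate proteoglycan, at 127 and 171 TPM, the collagen gene COL18A1 at 143 and 152 TPM, the laminin gene LAMA5 and the collagen gene COL6A2 at 141 and 121 TPM. Among the laminins LAMA5 stood at 130.3 and 149 TPM, LAMB2 at 89.8 and 94.1 TPM and LAMB3 at 61.4 and 65.2 TPM, while LAMA1 had 2 and 4 counts and LAMA4 0 and 0. Of the fibrillar collagens, COL1A2, COL3A1 and COL5A1 were at 0, and COL1A1 had 8 and 8 counts.

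Among focal adhesion and actin genes 28 of 30 were expressed, with a median of 107 TPM against 2.43 TPM over all protein-coding genes. ACTG1 reached 5909 and 7417 TPM, ACTB 3646 and 4579.9 TPM and the actin-binding profilin PFN1 3341 and 2812 TPM. CAV1, the coat protein of caveolae, stood at 182 and 265 TPM. ILK, an integrin-linked kinase, had 0 and 3 counts, but 78.5% of its exon bases overlap exons of other genes, chiefly TAF10, and its level cannot be read from these counts. Extracellular proteolysis was led by PLAU (urokinase) at 684 and 881 TPM and by the inhibitor TIMP1 at 1399 and 1142 TPM. MMP2 was at 0, MMP9 had 0 and 1 counts, and MMP14, the membrane-bound collagenase activator, reached 41.7 and 48.1 TPM.

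Of the 30 receptor tyrosine kinases examined outside the ERBB family, 15 were expressed (50%), close to the 54.6% of all protein-coding genes. EPHA2, an ephrin receptor, was highest at 239 and 312 TPM. AXL, the GAS6 receptor, stood at 143 and 179.6 TPM, and MET, the hepatocyte growth factor receptor, at 47.8 and 67.6 TPM. MST1R, a relative of MET, had 42.3 and 53.3 TPM, the ephrin receptor EPHB4 31.0 and 44.4 TPM and the collagen receptor DDR1 17.3 and 25.9 TPM. FGFR3, which is often mutated in papillary bladder tumours, lay near the threshold at 1.74 and 2.20 TPM. KIT, PDGFRA, FGFR2, FLT1, KDR, FLT4, NTRK3 and ALK were at 0. EGFR stood at 26.0 and 38.7 TPM, ERBB2 at 15.6 and 21.8 TPM and ERBB3 at 11.4 and 14.8 TPM. The order of these 3 depended on the gene length used: with the median transcript length the mean share of ERBB3 in the family was 37.5% and that of EGFR 32.5%. ERBB4 had 3 and 2 counts. Ligands of EGFR were present too, with EREG at 28.7 and 41.8 TPM, AREG at 32.1 and 34.5 TPM and HBEGF at 22.3 and 27.5 TPM, while EGF itself had 0 and 2 counts.

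RAS proteins pass the signal of such receptors to the RAF, MEK and ERK kinases, and T24 is the line from which an activated HRAS oncogene was isolated. HRAS lies at chr11:532242-537287 and stood at 388 and 274 TPM, or 4427 and 2715 counts. NRAS stood at 45.6 and 69.8 TPM. HRAS made up 89.5% and 79.7% of the summed TPM of HRAS and NRAS. The order of the pair held in both libraries and with each of the 3 other gene lengths tried, under which the mean share of HRAS ran from 84.6% to 91.8%. Downstream, MAP2K2 took 95.3% and 92.3% of the MEK transcripts and ARAF 77.6% and 67.6% of the RAF transcripts, with BRAF at 1.79 and 2.17 TPM. All 23 genes of the cascade examined were expressed.

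Genes known to follow ERK activity were abundant, with 12 of 14 expressed and a median of 37.8 TPM. FOSL1, a subunit of the AP-1 factor, stood at 391 and 414 TPM. DUSP5, a nuclear ERK phosphatase, reached 329 and 434 TPM and CCND1, which encodes cyclin D1, 298 and 403 TPM. In contrast DUSP4 had 0.313 and 0.799 TPM and SPRY1 0.697 and 1.70 TPM. The paralogues of these feedback genes were therefore unequal, with DUSP5 and SPRY2 (32.3 and 43.5 TPM) far above DUSP4 and SPRY1.

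In the PI3K pathway 15 of 19 genes were expressed. EIF4EBP1, a translation repressor that mTOR phosphorylates, was highest at 913 and 542 TPM. Of the catalytic subunits, PIK3CD had 7.002 and 9.10 TPM, PIK3CB 6.77 and 8.94 TPM and PIK3CA 2.05 and 2.46 TPM. With the median transcript length PIK3CA came to a mean of 35.5% of the 4 and PIK3CD to 17.9%, so their order is not fixed by these counts. PIK3R2, with no counts, has 87.2% of its exon bases under other genes and was not readable.

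Of the secreted signals, GDF15, a stress-induced member of the TGF-beta family, was the highest at 1569 and 1559.7 TPM. TGFB1 stood at 195 and 203 TPM and made up 98.8% and 98.2% of the TPM of the 3 TGF-beta genes. The receptors TGFBR1 and TGFBR2 were both expressed, TGFBR2 at 23.8 and 37.5 TPM. Of the chemokines, CXCL1, which attracts neutrophils, was highest at 448 and 616 TPM. CCL20, the ligand of CCR6, had 161 and 194 TPM, and the other neutrophil chemokines CXCL8 and CXCL2 had 119 and 184 TPM and 89.5 and 112 TPM, while CXCL5 was at 0. The cytokine IL6 stood at 78.7 and 101 TPM and LIF, of the same family, at 148 and 162 TPM, while IL1B, IL33 and CXCL12 were at 0. Thus 17 of 24 cytokine, chemokine and receptor genes were expressed.

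Among WNT pathway genes 21 of 32 were expressed, and 14 were with the median transcript length, so this count depends on the gene length used. WNT5B stood at 77.6 and 78.9 TPM and its receptor class was led by FZD2 at 71.4 and 59.9 TPM, while AXIN2, a common target of beta-catenin, had 0.342 and 0.501 TPM and LGR5 was at 0. SHH, the Hedgehog ligand of basal urothelium, was expressed at 26.1 and 35.9 TPM. The Hedgehog target genes PTCH1 and GLI1 were near the threshold, PTCH1 at 0.989 and 1.66 TPM and GLI1 at 1.27 and 1.34 TPM. All 13 genes of the YAP and TEAD list were expressed, with CCN1, a YAP target, at 189.9 and 283 TPM and TEAD4 at 69.2% and 58.5% of the TEAD transcripts.

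The glycolytic chain was complete, and for most steps 1 isoform supplied most transcripts. Glycolysis turns glucose into pyruvate, and lactate dehydrogenase and the monocarboxylate transporters dispose of the pyruvate as lactate, the question from which the study set out. ENO1 (enolase 1) lies at chr1:8861000-8879250 and was the most abundant enzyme at 3766 and 3534 TPM, a mean of 3650.1 ± 164 TPM (SD, n = 2). GAPDH stood at 2267 and 2663 TPM and TPI1 at 1683 and 1418 TPM. The 26 enzyme genes summed to 1.23% and 1.25% of TPM, with 17 expressed (65.4%).

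HK1 supplied 90.6% and 91.4% of the hexokinase transcripts, and HK2, the isoform induced in many tumours, stood at 4.66 and 5.43 TPM. PFKP and PFKL shared most of the phosphofructokinase transcripts, with 47.1% and 54.3% for PFKP. LDHB stood at 944 and 1096 TPM and LDHA at 706 and 883 TPM. Their order turned with gene length. The mean share of LDHA was 43.7% with the exon union and 34.1% with the length without shared bases. It was 50.7% with the longest transcript and 60.5% with the median transcript length. HK3, PKLR, PGK2 and LDHC, isoforms of liver, blood or testis, were at 0. Gluconeogenesis lacked its cytosolic enzymes PCK1 and FBP1, which were at 0, while the mitochondrial PCK2 stood at 60.6 and 62.5 TPM.

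SLC16A3, which encodes the lactate exporter MCT4 and is the transporter that the study follows, lies at chr17:82228397-82261129 and had 6649 and 5095 counts. Its level was 120.05 and 106 TPM, a mean of 113 ± 9.96 TPM (SD, n = 2), and its rank was 1176 among 19743 protein-coding genes. SLC16A1 (MCT1) stood at 42.5 and 69.6 TPM, SLC16A7 (MCT2) at 1.18 and 1.37 TPM and SLC16A4 at 0.308 and 0.295 TPM. SLC16A3 thus supplied 73.2% and 59.8% of the TPM of these 4 genes and was above SLC16A1 in both libraries, and this order also held with the 3 other gene lengths. Among the glucose transporters SLC2A6, at 52.1 and 50.4 TPM, and SLC2A1, at 21.6 and 30.9 TPM, were the members expressed. With the median transcript length SLC2A1 had the larger mean share (71.4% against 27.5%). SLC2A3 had 7 and 16 counts, and SLC2A2 and SLC2A5 had none. Of further genes that the study names, CPNE1, a calcium-dependent membrane-binding protein, stood at 353 and 342 TPM, PAK4, a CDC42 effector kinase, at 40.8 and 45.7 TPM, CCNY, the host gene of circ235, at 26.4 and 34.7 TPM and AGO2, the Argonaute slicer, at 11.01 and 14.8 TPM. With the median transcript length the mean of AGO2 was 120.5 TPM in place of 12.9 TPM. The circular circ235 has no polyadenylated tail, and how many of its reads, if any, passed the oligo dT selection into the count of CCNY was not measured.

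**Figure D2:**
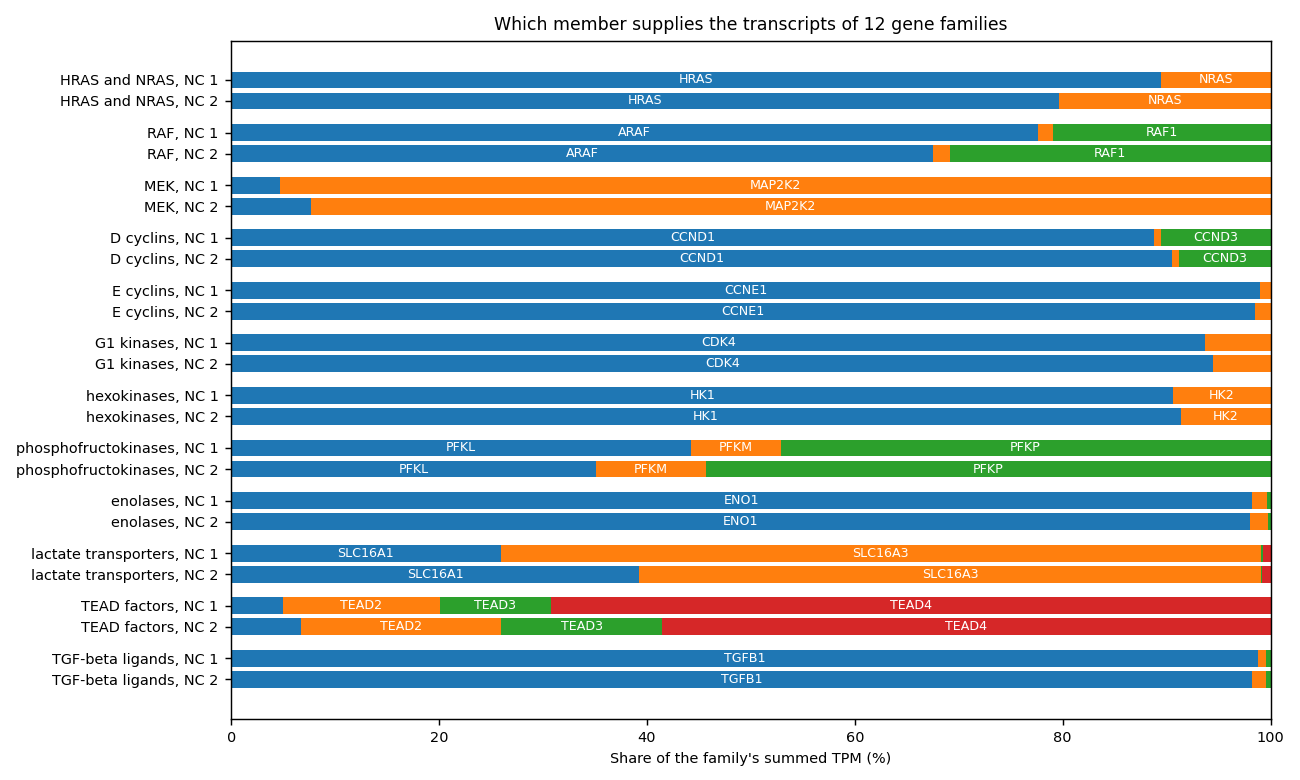
Each bar is 1 NC library and shows how the summed TPM of a gene family divides among its reported members, in percent, with the name printed on every part above 8%. A single member takes over 90% of the transcripts of the MEK, E cyclin, CDK4 and CDK6, hexokinase, enolase and TGF-beta families in both libraries, whereas PFKP and PFKL divide the phosphofructokinases and SLC16A3 and SLC16A1 the lactate transporters.

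All 23 genes of the citrate cycle list were expressed, from IDH3A at 2.80 and 6.13 TPM to MDH2 at 296 and 309.9 TPM. Of 16 genes of pyruvate entry and glycolytic control, 14 were expressed (87.5%). Pyruvate can enter through PDHA1, which stood at 47.8 and 49.5 TPM, and of the pyruvate dehydrogenase kinases, which close this entry, PDK2 had 6.22 and 11.71 TPM, PDK3 4.13 and 4.19 TPM, PDK1 1.48 and 2.87 TPM and PDK4 0 and 2 counts. Of 14 genes of the hypoxia pathway, 11 were expressed (78.6%). HIF1A, the oxygen-regulated factor, stood at 108 and 142 TPM. Of the genes it is known to induce, BNIP3 had 36.2 and 44.3 TPM, ADM 13.1 and 16.2 TPM, NDRG1 9.72 and 12.99 TPM and VEGFA 6.65 and 10.4 TPM, while CA9 had 2 and 0 counts and EGLN3 and CA12 had none. The NRF2 and antioxidant list had a median of 159 TPM, with GPX4, which reduces lipid peroxides, at 4268 and 3220.3 TPM, and NQO1, an NRF2 target, at 860.3 and 904 TPM. In amino acid metabolism the transporter SLC7A5 stood at 433 and 577 TPM, its partner SLC3A2 at 497 and 448 TPM and the serine enzyme PSAT1 at 267 and 389.9 TPM. ASNS, asparagine synthetase, had 16 and 15 counts, and 44.6% of its exon bases are shared with other genes.

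Cell cycle genes were expressed as a block. Of the DNA replication genes 21 of 21 and of the mitosis genes 27 of 28 passed 1 TPM in both libraries, with medians of 79.3 and 46.9 TPM. PCNA, the sliding clamp of DNA polymerase, stood at 753 and 928 TPM. UBE2C, the ubiquitin-conjugating enzyme of the anaphase-promoting complex, reached 693 and 764 TPM. The exception was CENPE, a kinetochore motor, with 206 and 40 counts or 3.54 and 0.792 TPM. CENPE was over 4 times higher in NC replicate 1, while 25 of the 28 mitosis genes were higher in NC replicate 2, as were 77.6% of all expressed genes.

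For entry into the cycle, CCND1 supplied 88.8% and 90.5% of the D cyclin transcripts, CCNE1 99.0% and 98.5% of the E cyclin transcripts and CDK4 93.7% and 94.5% of those of CDK4 and CDK6. CDKN2A, which encodes the inhibitors p16 and ARF and is often deleted in bladder cancer, was expressed at 76.9 and 72.8 TPM. RB1 stood at 10.02 and 14.3 TPM. CDKN1A, the p21 inhibitor, reached 264 and 315 TPM. TERT, the catalytic subunit of telomerase, which is silent in most somatic cells, had 655 and 490 counts and stood at 23.1 and 19.9 TPM, and 12 of 12 genes of telomere maintenance were expressed. All 15 chromatin regulators that are recurrently mutated in bladder cancer or related to these were expressed, with EZH2 at 33.8 and 47.0 TPM and KDM6A at 2.14 and 3.30 TPM.

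HOX genes keep a record of position along the body axis, and 24 of 39 were expressed (61.5%). The HOXB cluster had the most, with 9 of 10 expressed and summed levels of 168 and 191 TPM. By summed level HOXC, HOXD and HOXA followed, and by number expressed HOXA with 6, HOXC with 5 and HOXD with 4. HOXB7 was the highest of all at 72.7 and 77.6 TPM, HOXC9 stood at 57.6 and 55.7 TPM and HOXB2 at 45.5 and 54.4 TPM. At the posterior end HOXB13, a factor of the prostate and hindgut, was expressed at 8.10 and 10.5 TPM and HOXC13 at 8.51 and 8.80 TPM, but HOXA11, HOXC11, HOXC12 and HOXD12 were at 0. HOXD3, HOXD4 and HOXC5 share most of their exon bases with neighbouring transcripts, so their low counts are uncertain.

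**Figure D3:**
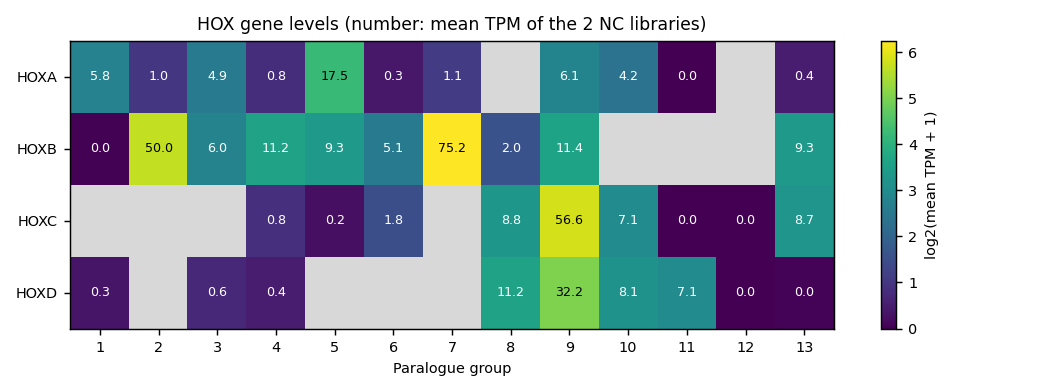
Rows are the 4 HOX clusters and columns the paralogue groups, with the mean TPM of the 2 NC libraries printed in each cell and its log2(mean TPM + 1) as colour, and grey where the human genome has no such gene. HOXB7, HOXC9, HOXB2 and HOXD9 stand out, and groups 11 and 12 are near 0 except HOXD11.

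Genes without any read lay side by side along the chromosomes. Runs of at least 10 neighbouring protein-coding genes at 0 in both libraries numbered 41 and held 757 of the 5476 genes not detected. The longest run held 66 genes between OR4B1 and APLNR on chromosome 11 (GRCh38, chr11:48216810-57237314), of which 57 were olfactory receptors. A run of 35 genes at chr21:30165564-31038476 held 33 keratin-associated protein genes of hair, and a run of 26 at chr4:69199951-70681817 began with UGT2B11 and ended with JCHAIN. Over the genome 361 of 381 olfactory receptor genes, 93 of 94 keratin-associated protein genes and 43 of 45 defensin genes were not detected. Of all protein-coding genes, 27.7% were not detected. Several of these families hold near-identical copies, whose reads the counting may have dropped.

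Expression also went with the base composition of the promoter. CG dinucleotides, the sites of DNA methylation in human cells, are rare in most of the genome and dense in CpG islands, which lie at the promoters of most broadly used genes. In the 300 bases from 250 before to 50 after the most upstream RefSeq start, 86.0% of the 8899 expressed genes with a sequence held 15 or more CG words, against 30.02% of the 3911 not detected and 66.1% of all 15427. The median number of CG words was 27 in the expressed, 16 in the low and 6 in the undetected genes. The word TATAAA, which marks TATA boxes, searched on the gene's strand with its start 45 to 15 bases before the gene's start, was found in 1.53% of expressed genes, 8.46% of undetected genes and 3.79% of all. Among the 78 genes at 1000 TPM or more it was found in 8.97%. Promoter sequences were matched for 80.9% of the 19063 protein-coding genes considered, outside chromosomes 8, Y and M.

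**Figure D4:**
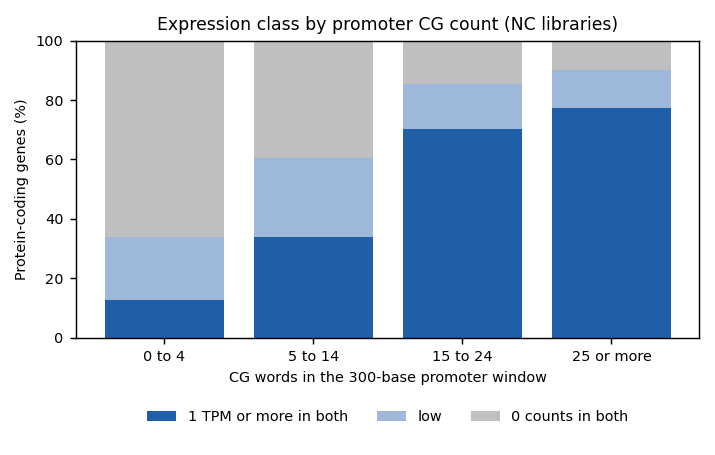
Bars divide the protein-coding genes with a RefSeq promoter by the number of CG words in its 300 bases, and colours give the percent of each bar at 1 TPM or more in both NC libraries, low, or at 0 in both. The share at 1 TPM or more goes from 12.8% with at most 4 CG words to 77.5% with 25 or more.

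6 promoters show the range, chosen after their levels were seen from genes described above that have 1 RefSeq start. They are printed 5′ to 3′ on the gene's strand from RefSeq on GRCh38.p14, with CG words in capitals, and the counts of words are on the printed strand.
ENO1: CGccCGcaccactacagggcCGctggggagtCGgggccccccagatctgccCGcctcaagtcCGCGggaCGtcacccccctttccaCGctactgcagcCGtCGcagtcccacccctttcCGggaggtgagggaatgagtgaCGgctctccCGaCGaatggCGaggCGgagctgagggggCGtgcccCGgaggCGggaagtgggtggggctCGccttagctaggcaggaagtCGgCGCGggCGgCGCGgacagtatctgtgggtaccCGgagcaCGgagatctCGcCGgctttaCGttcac
CLDN1: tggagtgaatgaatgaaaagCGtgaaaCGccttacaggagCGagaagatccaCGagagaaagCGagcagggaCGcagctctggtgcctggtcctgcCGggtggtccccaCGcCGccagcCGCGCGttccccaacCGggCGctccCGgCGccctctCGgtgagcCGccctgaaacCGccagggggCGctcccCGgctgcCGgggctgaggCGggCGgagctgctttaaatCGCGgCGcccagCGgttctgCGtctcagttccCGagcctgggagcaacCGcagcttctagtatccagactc
HRAS: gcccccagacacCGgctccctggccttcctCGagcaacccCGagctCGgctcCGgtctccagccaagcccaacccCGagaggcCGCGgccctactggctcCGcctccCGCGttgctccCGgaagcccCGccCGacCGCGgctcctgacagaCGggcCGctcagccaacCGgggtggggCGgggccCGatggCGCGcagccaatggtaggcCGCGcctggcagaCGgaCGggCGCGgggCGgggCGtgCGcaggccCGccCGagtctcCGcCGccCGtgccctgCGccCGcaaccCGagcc
FOXA1: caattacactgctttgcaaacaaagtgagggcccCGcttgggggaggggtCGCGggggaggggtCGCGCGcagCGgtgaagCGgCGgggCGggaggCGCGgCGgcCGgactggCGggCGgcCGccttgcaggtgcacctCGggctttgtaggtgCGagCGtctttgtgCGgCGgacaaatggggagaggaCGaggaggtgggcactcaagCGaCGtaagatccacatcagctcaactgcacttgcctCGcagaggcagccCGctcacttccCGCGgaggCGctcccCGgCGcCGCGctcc
KRT5: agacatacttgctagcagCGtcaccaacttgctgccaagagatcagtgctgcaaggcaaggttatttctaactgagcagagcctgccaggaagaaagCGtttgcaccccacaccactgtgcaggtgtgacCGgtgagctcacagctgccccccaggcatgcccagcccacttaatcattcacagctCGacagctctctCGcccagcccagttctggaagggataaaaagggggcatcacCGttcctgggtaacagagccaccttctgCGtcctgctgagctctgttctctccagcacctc
KRT20: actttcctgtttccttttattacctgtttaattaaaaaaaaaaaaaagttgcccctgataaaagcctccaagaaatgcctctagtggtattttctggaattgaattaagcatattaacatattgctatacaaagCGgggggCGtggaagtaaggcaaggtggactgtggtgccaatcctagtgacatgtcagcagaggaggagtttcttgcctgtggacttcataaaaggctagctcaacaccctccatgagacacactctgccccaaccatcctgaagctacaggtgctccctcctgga
The highly expressed ENO1, at chr1:8878637-8878936 on the minus strand, holds 32 CG words. CLDN1, at chr3:190322397-190322696 on the minus strand, holds 31, and HRAS, at chr11:535527-535826 on the minus strand, 40. The RefSeq start lies 1711 bases inside the gene as GENCODE draws it for HRAS, 810 for FOXA1, 564 for ENO1, 293 for KRT5 and 29 for CLDN1. The undetected KRT20, at chr17:40885193-40885492 on the minus strand, holds 2, and the undetected KRT5, at chr12:52520345-52520644 on the minus strand, 7. FOXA1, at chr14:37595200-37595499 on the minus strand, departs from this order, with 34 CG words and a level of 1.31 and 1.22 TPM. A count of CG words says nothing of whether they are methylated in these cells, which was not measured.

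The replicates differed by more than counting error, which bounds how finely the levels above can be read. The labels give them as separate biological replicates, and the chi-square of their counts per degree of freedom was 23.9, where counting error alone gives about 1. Over 11644 protein-coding genes with at least 10 counts in both, the log2 ratio of NC replicate 2 to NC replicate 1, on the log2(TPM + 1) scale, had a median of 0.27 and an SD of 0.33. With CPM, among genes of 1000 to 10000 counts the SD was 0.34, where counting error alone gives 0.05. The ratio followed base composition and length. Its median was 0.35 in the quartile of genes of lowest GC content and -0.08 in the quartile of highest, and it was -0.02 for the shortest and 0.35 for the longest quartile. HRAS, with a GC content of 65.8%, stood higher in NC replicate 1, and NRAS, with 38.4%, in NC replicate 2. The part of RNA quality or library preparation in this was not tested.

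The 10 genes of at least 10 mean TPM with the largest ratio between the replicates were MT-ND4L, CAP1, LENG1, CERS2, ATF6B, CEBPZ, CNOT1, FAM53C, PIP5K1A and CDC42BPB. The ratio of CAP1, a cyclase-associated actin regulator, was 1.53 on the log2 scale, from 33.0 and 95.3 TPM. LENG1 was the only one of the 10 higher in NC replicate 1, at 17.8 and 6.79 TPM. MT-ND4L, a subunit of respiratory complex I, stood at 289.8 and 891 TPM, and 2.36% of its exon bases are shared with other genes. This percentage does not cover reads that reach beyond the gene into another one. How many of those went uncounted was not measured, so its level and ratio are uncertain.

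**Figure D5:**
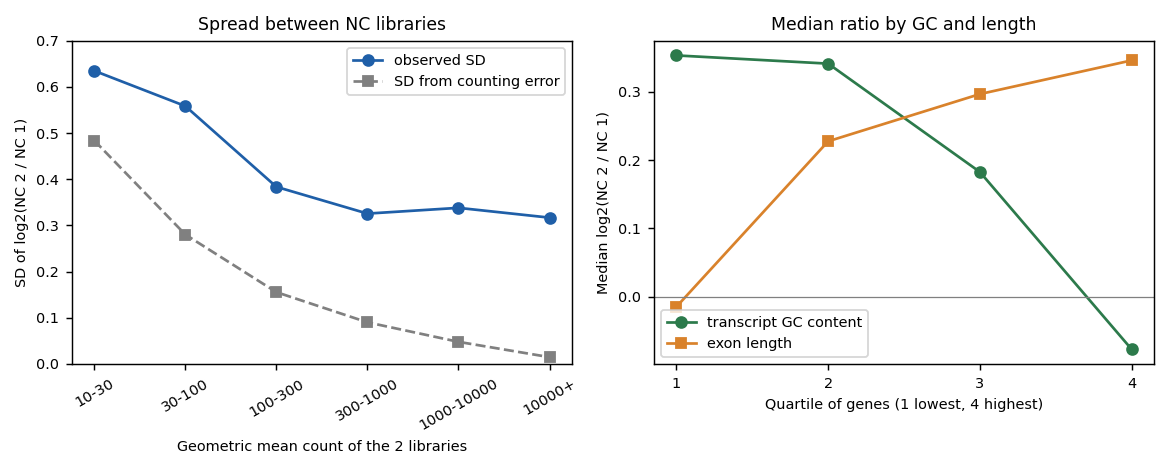
Left, the SD of the log2 ratio of CPM of NC replicate 2 to NC replicate 1 by geometric mean count, beside the SD from counting error, and right, the median log2 ratio by quartile of transcript GC content and exon length. The observed SD stays above 0.3 even where counting error gives under 0.05, and the median ratio goes down with GC content and up with length.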

How the data were processed

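The authors extracted RNA with RNAiso Plus, enriched it for polyadenylated transcripts and sequenced it without strand information. The values that the authors deposited are raw counts, in whole numbers, of the reads on each gene. The submitters' processing notes name FastQC, cutadapt, STAR and the build hg38. For the counting tool and gene annotation, nothing is given in the sources used here. The 2 NC libraries held 17152017 and 15855386 counts, and the other 4 libraries were not used. 

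Identifiers were matched without version to GENCODE release 29 of GRCh38, in which 99.5% were found, and 95.4% with the same version. TPM were computed here from the deposited counts and the union of a gene's exons. Reads from exons shared by several genes seem mostly not to have been counted, which was not tested. Protein-coding genes whose exons lie wholly under other genes were at 0 in 98.9% of cases, against 33.2% of genes with no shared base. That percentage was 15.3% with up to 50% of bases shared, 38.4% above 50 to 90%, and 85.2% above 90 and under 100%. A low level of a gene with over 50% of shared bases is therefore uncertain. The 90 identifiers of pseudoautosomal genes held 0 and 1 counts in all and were left out of the runs of silent genes. Reads of near-identical copies and of polymorphic genes such as HLA may also be missing.

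The 56 lists (904 genes) and the part of the data described were chosen with earlier results of these data known. The rule for names took the 20 protein-coding genes of highest mean TPM, the 10 of largest ratio between the NC libraries at a mean of at least 10 TPM, all members of lists of up to 14 genes and the 6 highest and 6 lowest members of longer lists, and the genes that the study names. Other members named were chosen after their values were seen, and some members are counted in their lists but not reported here by name. The computation of levels, classes and the spread between libraries was run on simulated counts for 19743 genes. There, 99.97% of genes with a true level of at least 2 TPM were taken as expressed. The simulated libraries differed by counting error only, no reads were lost, and the gene lengths were known. This run therefore checks the computation and cannot show how well the real levels were measured. Tools were Python 3.11.15 with numpy 2.4.6, pandas 2.3.3, scipy 1.17.1 and matplotlib 3.10.9, and R 4.3.3 with edgeR 4.0.16 for trimmed mean of M values (TMM) factors. Alternatives were other gene lengths, CPM, another denominator, TMM, thresholds of 0.5 and 2 TPM, each library alone, other pseudocounts and filters, and at most 3 counts as silent. Lengths without shared bases and promoters of genes with 1 RefSeq start were chosen after seeing the data. Promoter sequences came from RefSeq (GRCh38.p14).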

Additional observations from a re-analysis of the deposited data

How the results depend on the processing

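The count of expressed protein-coding genes stayed within 1.5 times its value of 10783 under all 10 alternatives, from 9862 at a threshold of 2 TPM to 11459 at 0.5 TPM, with 11121 and 10927 in NC replicate 2 and NC replicate 1 alone. The share of mitochondrial mRNAs in the pool, 13.7% in the mean, was 9.93% with the longest transcript length, 4.20% with the median transcript length, 4.34% of CPM and 17.0% relative to nuclear protein-coding genes. That of ribosomal protein genes, 16.0%, was 19.3%, 19.8% and 19.7% with the longest transcript, the median transcript and the nuclear denominator. Both shares follow from the length or denominator by construction. Of the 56 lists, the number of expressed members moved by over 1.5 times in 5 at 0.5 TPM and in at most 2 under any other alternative, and these were the uroplakins, the cancer-testis genes and markers of smooth muscle, melanocytes and hepatocytes, which have few expressed members. Of 599 named genes, the mean level moved by more than the SD between the libraries in 202 with the longest transcript length, 377 with the median transcript length, 359 with CPM, 264 with the nuclear denominator and 80 of 598 without shared bases. TMM factors brought the median log2 ratio of the libraries from 0.27 to 0.02, with an SD of 0.34 in place of 0.33. The SD was 0.40 with a pseudocount of 0.1 TPM and 0.34 with no minimum count. The share of CG-rich promoters ran from 84.9% to 90.5% in expressed genes and from 28.8% to 31.0% in undetected genes. The TPM threshold cannot move the share in undetected genes, since that class rests on counts of 0. Silent runs of 10 or more held from 757 to 996 genes, the most with at most 3 counts as silent. The longest run held 66 genes throughout. No paired analysis was possible because only 1 group was described. With 2 libraries, an SD rests on 1 degree of freedom.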

Other observations

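Of the 20 cancer-testis genes, germ-cell genes that many tumours switch on, 0 reached 1 TPM in both libraries and 14 had no counts, including PRAME, MAGEA4 and MAGEC2. MAGEA6 had 10 and 15 counts, but it shares near-identical copies with MAGEA3, so both are uncertain. Of 21 nuclear receptors, 15 were expressed (71.4%, against 54.6% of all protein-coding genes). The steroid receptors ESR1 and PGR were not detected, while the glucocorticoid receptor NR3C1 stood at 4.78 and 7.12 TPM and the oxysterol receptor NR1H2 at 71.8 and 73.0 TPM. Of 9 targets of antibody drugs and inhibitors, 4 were expressed. NECTIN4, a surface protein that an antibody drug for bladder cancer binds, had 6 and 7 counts, whereas ERBB2 was expressed.

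Antigen presentation genes were uneven. B2M, the shared light chain of class I molecules, stood at 132 and 173 TPM, while HLA-B had 5.54 and 3.99 TPM and HLA-C 5 and 12 counts. HLA genes are polymorphic and similar to each other, and the number of reads lost for that reason was not measured. CD274, which encodes PD-L1, had 8 and 3 counts, and CD276 stood at 14.5 and 17.6 TPM.

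Among long noncoding RNAs 12 of 19 were expressed. GAS5, a host of small nucleolar RNAs, was highest at 278 and 311 TPM, and H19, an imprinted transcript, stood at 29.6 and 29.3 TPM. UCA1, which was named for its abundance in urothelial carcinoma, had 0 and 5 counts, and HOTAIR, HOTTIP and MEG3 were at 0. In the apoptosis list, BCL2L1 stood at 254 and 239.6 TPM and MCL1 at 108 and 166 TPM, against 1.93 and 2.78 TPM for BCL2.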
